A study of Homo sapiens with 4 samples.

Results

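RNA pulled down with NSUN2 from PANC-1 cells kept without added lactate was read from the peak list of 1 immunoprecipitation. All peaks of that list were taken as members, with no further selection, and they numbered 95785 of the 143889 peaks in both lists of the series. RNA immunoprecipitation sequencing (RIP-seq) sequences the RNA that an antibody against a protein pulls down, beside a portion of the starting lysate, the input. PANC-1, an established human line of pancreatic ductal adenocarcinoma (PDAC), was used as wild type. The cells received ddH2O, the vehicle, for 24 h, and gave 1 IP library with an anti-NSUN2 antibody and 1 input library. The other group of the series, given 30 mM sodium lactate for 24 h, served here only to see which peaks were also called there. With 1 library of each kind there was no replicate error and no test, and no library from a control antibody was used, so a peak shows more RNA in the pull-down than in the input and not which part of it needs NSUN2.

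NSUN2 is a nuclear RNA methyltransferase of the NOL1/NOP2/Sun family that sets 5-methylcytosine (m5C) on RNA. Its best known substrates are transfer RNAs, where the mark guards against cleavage, and vault RNAs, whose processing it affects. It also methylates messenger RNAs, on which readers such as ALYREF and YBX1 bind the mark, with effects on export from the nucleus and on stability.

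The 95785 peaks covered 31.2 Mb with a median length of 241 bases, and those on genes fell on 16674 genes. Each peak carried a fold (IP over input), a score (the −log10 of its p-value) and a q-value. The median fold was 3.03, with quartiles of 2.43 and 4.55, and 32.4% of the peaks reached a fold of 4. The IP reads in a window of 2 kb around each peak were also recovered, with a median of 8 reads per peak and quartiles of 4 and 19. Summed over the peaks they came to 9418602, of which the single peak of MT-RNR2, the large ribosomal RNA of mitochondria, held 62.9% and that of the nuclear RNA MALAT1 held 0.954%. The depth of the libraries outside these windows is unknown.

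Few of the small RNAs that NSUN2 is known for were touched by a peak, at a share close to that of microRNA hairpins (2.15%) for transfer RNAs. Of 429 transfer RNA genes in the RefSeq annotation, 9 were touched by a peak, or 2.098% (95% Wilson interval 1.11 to 3.94%, which covers counting error only). Their folds ran from 1.82 to 3.64 with 2 to 17 IP reads in the window, 4 had a q-value below 0.05, and 4 lay in intergenic peaks, 3 in introns and 2 in exons of longer genes. The largest were TRK-CTT2-4, TRS-AGA5-1 and TRG-GCC1-5, each at a fold of 3.64. Of the 4 vault RNA genes only VTRNA1-1 had a peak, with a fold of 2.38, a q-value of 0.729 and 6 reads, and none of the 4 Y RNA genes had one. The libraries were made with a kit that primes on poly(A) tails, which these short RNAs lack, so the low counts say nothing about how much NSUN2 bound them.

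MicroRNA genes were covered mainly as stretches of longer transcripts. A peak touched 41 of 1911 hairpins (2.15%, interval 1.59 to 2.90%), of which 35 lay in peaks annotated to exons, 4 to 3′ UTRs and 2 to 5′ UTRs. In 28 cases the peak spanned the whole hairpin, in 31 its q-value was below 0.05, and in 9 the annotation named the microRNA gene itself. The sequences below are shown because their hairpins lay whole inside peaks with a q-value below 0.05 that had high folds, without being a full ranking, to which the one with the most reads (MIR6805) was added. They are mature sequences from RefSeq on GRCh38.p14, 5′ to 3′, with the seed (bases 2 to 8) in capitals.
hsa-miR-6727-5p: cUCGGGGCaggcggcugggagcg
hsa-miR-6727-3p: uCCUGCCAccuccuccgcag
hsa-miR-6790-5p: gUGAGUGUggauuuggcgggguu
hsa-miR-3128: uCUGGCAAguaaaaaacucucau
hsa-miR-1825: uCCAGUGCccuccucucc
hsa-miR-5094: aAUCAGUGaaugccuugaaccu
hsa-miR-6805-5p: uAGGGGGCggcuuguggagugu
The 30 mature sequences of 20 such hairpins had 30 different seeds.

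Most of the hairpins shown lay in peaks annotated to a protein-coding gene. The hairpin of miR-6727 (5p arm at chr1:1312539-1312561, minus strand) lay in an exon peak of INTS11, the endonuclease of the Integrator complex, with a fold of 14.7 and 277 reads. That of miR-6790 (5p arm at chr19:6392961-6392983, minus strand) lay in a 5′ UTR peak of GTF2F1, a general transcription factor subunit, with a fold of 14.6 and 23 reads. That of miR-1825 (chr20:32237830-32237847, plus strand) was in the 3′ UTR of POFUT1, which adds fucose to Notch receptors, with a fold of 9.18 and 510 reads. The hairpin of miR-6805 in RPL28, a ribosomal protein gene, had a fold of only 3.15 beside 2173 reads. The peaks of MIR3128 (fold 9.90, 29 reads) and MIR5094 (fold 7.70, 39 reads) were annotated to the microRNA genes themselves and were 1014 and 611 bases long. All of these peaks were much longer than the 18 to 24 bases of a mature microRNA, and the reads cannot tell a hairpin from its host transcript or from an antisense one.

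Small nucleolar RNAs (snoRNAs), which guide modification of ribosomal RNA, had a peak in 74 of 1196 genes (6.19%, interval 4.96 to 7.70%). Of those, 55 lay in exon peaks and 14 in a peak annotated to the snoRNA itself. The largest fold was that of SNORD109A inside SNHG14, at 22.6 with 46 reads. SNORD56 and SNORD57 shared the exon peak of NOP56, which encodes a core protein of the box C/D snoRNA particle, with a fold of 20.6 and 2808 reads. Of 156 small nuclear RNA genes in RefSeq, 12 had a peak, with folds up to 5.46 and at most 32 reads. The deposited annotation named 49 genes of this biotype with a peak, with folds up to 10.9.

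Most peaks lay in introns, but most IP reads lay in exons and 3′ UTRs. Introns held 53767 peaks, or 56.1% (interval 55.8 to 56.4%), and 18.8% of the reads once MT-RNR2 and MALAT1 were left out. Exons held 21.8% of the peaks and 39.7% of the reads. The 3′ UTRs held 12.9% of the peaks and 38.4% of the reads, with a median of 31 reads per peak against 7 in introns, 11 in exons, 6 in 5′ UTRs and 4 between genes. Windows of neighbouring peaks overlap and then count a read more than once, so the shares were also taken over the 54740 peaks with no other peak within 2 kb. There introns held 57.7% of the peaks and 19.9% of the reads, exons 20.4% and 35.9%, and 3′ UTRs 10.8% and 40.9%.

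**Figure D1:**
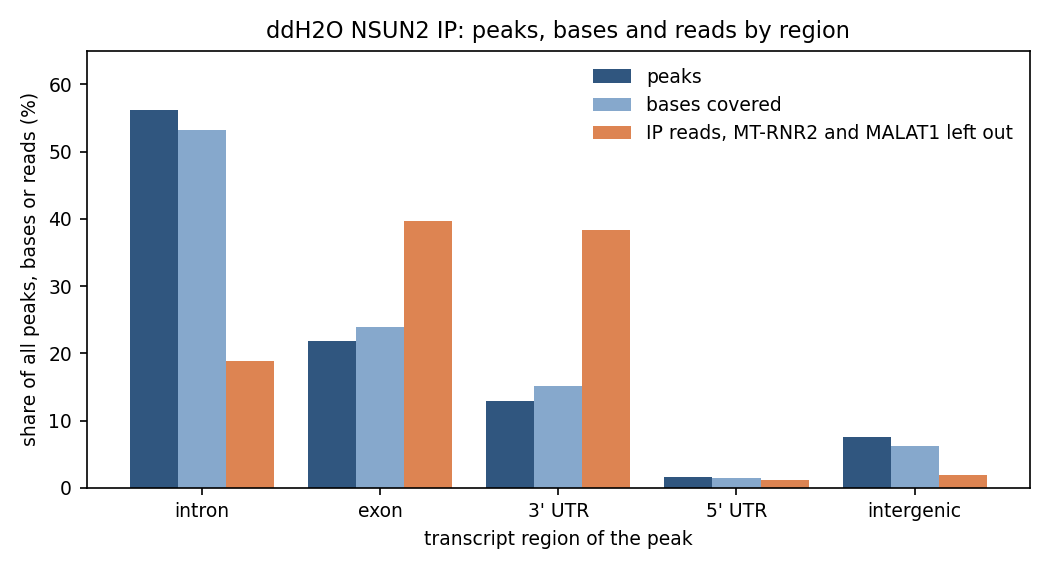
Share of peaks, of bases covered and of IP reads (y axis, %) in each transcript region (x axis) of the ddH2O list, with MT-RNR2 and MALAT1 left out of the reads. Introns hold 56.1% of the peaks and 18.8% of the reads, while exons and 3′ UTRs hold 39.7% and 38.4% of the reads.

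The input stood at its minimum most often at intergenic and intron peaks. The deposited fold was a whole multiple of 0.607 (within 0.001) at 59.9% of all peaks. These multiples are what results if the fold is the number of overlapping IP fragments at the summit plus 1, over a background plus 1, with the background at a genome-wide minimum of 0.648 fragments. On that basis the input held no local excess at these 57341 peaks, and their score equalled the Poisson tail of the fragment number within 0.02 at 99.88% of them. The share of such peaks was 80.9% between genes, 72.6% in introns, 53.3% in 5′ UTRs, 41.3% in exons and 24.4% in 3′ UTRs. A summit of 2 fragments gave a fold of 1.82 (14135 peaks) and 3 fragments gave 2.43 (14021 peaks), so 29.4% of the whole list stood on 2 or 3 fragments. The median fold of 3.03 was that of 4 fragments over an input at its minimum.

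The regions kept this order in the scores. The median score was 7.03 in 3′ UTRs, 5.26 in exons, 4.23 in 5′ UTRs, 3.25 in introns and 2.36 between genes. Peaks with a q-value under 0.05 made up 70.6% of the 3′ UTR peaks, 60.4% of the exon peaks, 51.6% of the 5′ UTR peaks, 41.3% of the intron peaks and 30.3% of the intergenic peaks. The share also called with lactate, by an overlap of at least 1 base, was 43.8% in 3′ UTRs, 34.5% in exons, 26.6% in 5′ UTRs, 23.6% in introns and 12.6% between genes. The window counts have a limit of their own, since they fell below the fragment number at 27.7% of the exon and 22.6% of the 3′ UTR peaks with the input at its minimum, against 1.38% of the intron peaks. Exonic read counts are therefore on the low side, and the cause was not tested.

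Along protein-coding genes the peaks of each region followed their place in the transcript. Of 12080 3′ UTR peaks, 59.7% lay in the last of 10 equal bins of the gene span, and of 1453 5′ UTR peaks 49.8% lay in the first bin. Exon peaks leaned to the 3′ end, with 19.6% in the last bin against 8.13% in the first. Intron peaks were spread almost evenly, between 9.13% and 11.5% in each bin but the last, which held 5.19%.

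Most peaks were on protein-coding genes, although MT-RNR2 alone held most of the window reads. Of the peaks on a gene, 88.6% (interval 88.4 to 88.8%) were on protein-coding genes, 8.64% on long noncoding RNAs and 0.953% on transcribed unprocessed pseudogenes. The 12138 protein-coding genes with a peak had a median of 3 peaks and 26.5% had 1 peak. The 3070 long noncoding genes had a median of 1 peak, and 62.6% had 1. Peaks of long noncoding genes lay in introns in 63.6% and in exons in 36.4%, with median window counts of 5 and 9 reads. Processed pseudogenes had 733 peaks, 731 of them exonic, and because these genes are copies of messenger RNAs their reads cannot be told from those of the parent genes. TTC3P1, a copy of a ubiquitin ligase gene, was listed with 6 peaks, 2 of them on its RefSeq span, and a fold of up to 14.5.

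How many peaks a gene had followed its length, while its best score hardly did. The 1667 genes with most peaks, 10% of all, held 46.4% of all genic peaks, and 83 protein-coding genes with at least 50 peaks held 5581. In 5 equal groups by length, from a median of 6.99 kb to one of 190 kb, the median number of peaks went 1, 2, 4, 7 and 12. The median of the genes' highest fold also went up, from 4.06 to 7.26. The intron share went from 18.8% in the shortest group to 75.8% in the longest, which held 59.8% of all intron peaks and 29.5% of the exon and UTR peaks. Across 11872 genes Spearman's rho with gene length was 0.68 for intron peaks, 0.21 for exon and UTR peaks and 0.034 for the highest score, as a description, since genes share the library and are not replicates. Of the protein-coding genes 16.3% had intron peaks only and 34.3% had exon or UTR peaks only.

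The genes with most peaks were long genes read through their introns. SYT1, the calcium sensor of synaptic vesicles, had 113 peaks over 588 kb, 102 of them in introns, and its best peak was an exon peak with a fold of 17.1 and 65 reads. SLC35F3, a solute carrier gene, had 104 peaks, 101 in introns, and the largest summed peak length of any gene at 45492 bases. LPP, a focal adhesion protein gene, had 100 peaks. Its highest score came from the 3′ UTR, at 187.7 with 635 reads, while its highest fold of 23.1 came from an intron with 47 reads. THSD4, a matrix protein gene of the ADAMTS-like family, had 96 peaks, 92 in introns, with an intron peak of fold 45.5. KCNQ5, a potassium channel gene, had 95 peaks, 93 in introns and 2 in the 3′ UTR.

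DST stood apart from the others of this kind. It encodes dystonin, a linker of the cytoskeleton, and 42 of its 94 peaks were in exons, with 50 in introns. The rest of the 10 genes with most peaks were FAF1 with 91, PRKCA with 90, SBF2 with 87 and FRMD4A with 86, of which introns held 87, 84, 73 and 82. ASAP1, a GTPase-activating protein gene of the actin cytoskeleton, had 83 peaks and 16 exon or UTR peaks, with a 3′ UTR peak of 856 reads. ZC3H12B had 76 peaks, 73 in introns. Median folds of these genes ran from 2.73 (FRMD4A) to 4.25 (ZC3H12B), so a gene with many peaks did not have high ones throughout.

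The strongest peaks were on another set of genes. Among the 100 peaks of highest score 60 were in exons, 38 in 3′ UTRs, 1 in an intron and 1 in a 5′ UTR, 97 were on protein-coding genes and 99 were also called with lactate. The first protein-coding peak was in an exon of MAP1B, which binds microtubules in growing neurites (chr5:72194087-72196386), with 2300 bases, a fold of 41.7, a score of 4146 and 7510 reads. The remaining 19 peaks of MAP1B included 17 in introns with scores of 1.55 to 19.1 and at most 35 reads each. So a single exon carried most of the reads of a gene whose peaks were mostly intronic.

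Other genes followed by score. PRRC2C, a stress granule protein gene, had an exon peak with a score of 3219, a fold of 25.6 and 5303 reads, and 19 of its 23 peaks were in exons. HSP90AB1 and HSP90AA1, the cytosolic HSP90 chaperones, had exon peaks with scores of 2599 and 1862, folds of 18.7 and 6.58 and reads of 6059 and 10792. FBL encodes fibrillarin, the methyltransferase of the box C/D snoRNA particle, and its exon peak reached a score of 2211 at a fold of 5.11 and 8586 reads. NCL, which encodes nucleolin, had a pair of neighbouring exon peaks with scores of 1791 and 1690 and folds of 30.1 and 21.2. LRRFIP1 (score 1729, 5487 reads), MKI67, the proliferation antigen (score 1668, 2292 reads), and SREK1, a splicing regulator with a 3′ UTR peak (score 1600, 4014 reads), came next. ZNF780B, a zinc finger gene of chromosome 19, held the 1 intron peak of these 100, with a score of 1489, a fold of 37.8 and 1472 reads.

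Ranking by fold named other genes, at lower read counts. The largest fold with a q-value below 0.05 was 88.6, at a 5′ UTR peak of ZC3H11A, a zinc finger protein gene of mRNA export, with a score of 301 and 217 reads. SLC5A3, an inositol transporter gene, followed with 78.5 in an exon and 282 reads. ANKRD17 had an exon peak with a fold of 73.2 whose window held only 13 reads against a score of 318, one of the peaks where the window count was low. SMARCC1, a subunit of the SWI/SNF chromatin remodeller, had a fold of 61.3 and 162 reads, and DSP, the desmosome protein desmoplakin, 55.9 and 191 reads. SUPT16H (histone chaperone FACT), ATR (DNA damage kinase), TOB2 and MAN1B1 had folds of 53.0, 48.9, 48.9 and 48.5 with 284, 172, 219 and 167 reads. DST was the only gene among both the 10 with most peaks and the 10 with the highest fold, at 51.5 in an intron peak of 202 reads.

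Among long noncoding RNAs, PVT1 had 66 peaks, 56 in introns, with a highest fold of 50.1. MIR4435-2HG had 64 peaks, 46 in introns, and a highest fold of 29.7 with 72 reads. LINC00511 was listed with 72 peaks, but none of them lay on the RefSeq span of that symbol, so its count rests on the deposited annotation alone. KCNQ1OT1, an imprinted antisense RNA, had 17 peaks, all exonic, with a highest fold of 10.9, and MEG3 had 7 exonic peaks with a highest fold of 26.3 and 170 reads. MALAT1 had 1 peak with a fold of 1.19 and TUG1, listed as protein-coding in the deposited annotation, had 4 peaks with 1135 reads at the largest window. Of 33 well-known noncoding RNAs on a list written from general knowledge, 19 (57.6%) had a peak, against 23.3% of the 5860 long noncoding RNA genes with a name in RefSeq. The 33 were not matched to the 5860 in length or expression, so nothing is drawn from the difference. In that list RN7SK, RN7SL1, RMRP, RPPH1, TERC and GAS5 were among those with none. The library kit primes on poly(A) tails, and a peak needs more RNA in the IP than in the input. These absences therefore say nothing about binding by NSUN2.

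Protein-coding gene lists were read against all 19993 RefSeq protein-coding genes, of which 59.2% had a peak, 50.3% an exon or UTR peak, 48.1% a peak with a q-value below 0.05 and 39% a peak with a fold of at least 4. These shares depend on length and expression, which the lists do not match, so a list above or below them is described and nothing is drawn from it. A gene without a peak may be highly expressed, since a peak needs more RNA in the IP than in the input.

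The enzymes that charge tRNAs were all in the list. Each of the 20 cytosolic aminoacyl-tRNA synthetase genes had a peak, and each also had an exon or UTR peak, a peak with a q-value below 0.05 and one with a fold of at least 4. They held 169 peaks, with a median of 7 per gene against 1 over all protein-coding genes, and 34.3% of these were in introns. MARS1, the methionine enzyme, had the highest score at 774 with 2290 reads. TARS1, the threonine enzyme, had the highest fold at 17.6 with 51 reads. CARS1 had the most peaks with 20, of which 13 were in introns, while LARS1 had 15 peaks with none in an intron and a highest score of 13.8.

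Chaperone genes had a peak in 27 of 30, all 27 of them exonic and with a q-value below 0.05, and 19 reached a fold of 4. HSPA9, the mitochondrial HSP70, had a highest fold of 14.6 and a highest score of 879. CCT6A, a subunit of the folding ring TRiC, had a highest fold of 13.4 and a highest score of 327. TCP1 of the same ring had no peak, nor did HSPE1. HSPA1B had none beside 1 for HSPA1A at a fold of 2.80, but these near-identical copies share reads and are uncertain.

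Translation factor genes had a peak in 39 of 43 and 32 had an exonic one. EIF5B, a subunit joining factor, had 12 peaks, 11 of them in exons, with a score of 881, a fold of 8.18 and 3397 reads at the best. EIF3A, the largest subunit of eIF3, had 14 peaks, 12 in exons, with a score of 782. EIF4G3 had 65 peaks, of which 49 were in introns and 15 in the 3′ UTR. EIF3C, EIF4A2, EIF5A and EEF1B2 had none.

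Splicing factor genes had a peak in 48 of 61, with 44 at a q-value below 0.05, and 29.3% of their 280 peaks were in introns. SRRM2, a scaffold of nuclear speckles, had a fold of 30.2 and a score of 241 in an exon and 9 of its 11 peaks in exons. CDC5L had 14 peaks, 10 in exons, with a highest fold of 8.05. Proteasome genes had a peak in 27 of 31, all with an exonic one. PSMA1 led with 39 peaks, 37 of them in introns, and PSMA3, PSMB3, PSMC2 and PSMD6 had none.

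Ribosomal protein genes had a peak in fewer members, 34 of 79 (43.0%, interval 32.7 to 54.0%), and 10 (12.7%) reached a fold of 4. Their windows were not poor in reads, with a median of 402 over the genes with a peak against 38 over all protein-coding genes with one. Among the 4 members with most peaks, RPSA (fold 5.82, 771 reads) and RPL6 (fold 7.66, 452 reads) had the highest scores, 182 and 180. RPL3 in that set reached a fold of 2.25 with 692 reads in the same window. Outside that set, the RPL28 exon peak had a higher score of 230 at a fold of 3.15 with 2173 reads. These genes have many processed pseudogenes, and the split of reads between copies is uncertain. Nuclear-encoded oxidative phosphorylation genes had a peak in 45 of 76 (59.2%) and 21 (27.6%) reached a fold of 4, with NDUFS4 at 11 peaks, 10 of them in introns, and NDUFS1 at 9, none in an intron.

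Histone genes that are expressed in S phase and whose mRNA ends without a poly(A) tail had a peak in 16 of 48 and a fold of 4 in 4. This count rests on the deposited annotation, which put 11 of their 23 peaks in introns, and the peaks of H2AC6 and H2BC11 lay off the RefSeq span. Of 15 genes of the mitochondrial genome only MT-RNR2 had a peak, with a fold of 3.35, and none of the listed mitochondrial messenger RNAs had one.

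Glycolysis and lactate handling genes were listed because the other group of the study received lactate. They had a peak in 18 of 20 (90%), against 59.2% of all protein-coding genes. A fold of 4 was reached by 8 (40%), close to the 39% of all protein-coding genes. PKM, the last kinase of glycolysis, had 9 peaks with a highest score of 589 in the 3′ UTR and 2623 reads. ENO1, or enolase, also had 9, with a highest score of 280 at an exon peak of fold 2.54 and 2720 reads. SLC16A3, the lactate exporter MCT4, had 4 peaks, of which 1 lay on its RefSeq span, with a highest fold of 9.86 and a highest score of 276. PFKP had 14 peaks, 7 in introns and 5 in the 3′ UTR. GAPDH and LDHA had no peak, and LDHB had 2 with a highest fold of 2.43.

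Genes of neural guidance were listed because the study addressed nerve invasion. Axon guidance receptors and ligands had a peak in 38 of 44, and 225 of their 316 peaks (71.2%) were in introns against 60.7% over all protein-coding genes. Those with a peak had a median length of 54.7 kb, against 37.7 kb over all protein-coding genes with one. The part of gene length in this share was not tested. EFNA5, an ephrin, had 41 peaks, 39 in introns, and ROBO1, a receptor for SLIT, had 40, 34 in introns, with a highest fold of 6.85 and at most 23 reads. EPHB2, an ephrin receptor, had a 3′ UTR peak of fold 25.9 with 139 reads, and SEMA3C, a semaphorin, an intron peak of fold 20.6 with 52 reads. The list's median of the highest window count was 28 reads, against 38 over all protein-coding genes with a peak.

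Integrin, laminin and collagen genes had a peak in 31 of 37, and 42.4% of their 205 peaks were in introns. ITGA6 had 20 peaks, 11 in exons, with a fold of 25.4 and 111 reads at the highest. ITGB1 had 19 peaks, 13 of them on its RefSeq span, its 5′ UTR peak with a fold of 11.4 and its best exon peak with a score of 292. ITGA2 had 17 peaks, 11 of them in the 3′ UTR, where a peak had a score of 197 and 964 reads. COL5A1 had 18 peaks, 16 in introns.

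Most genes of the m5C machinery had a peak themselves. Of 17 genes of m5C writers, readers and erasers 15 had a peak, all 15 with an exonic one, and 12 reached a fold of 4. FMR1, an RNA-binding protein that reads the mark, had 8 peaks, 5 in the 3′ UTR, with a fold of 14.4 and 103 reads. NSUN4, the writer of mitochondrial ribosomal RNA, had 3 peaks with a highest fold of 12.4 and a highest score of 57.3. TET3, TET2 and NSUN6 had 17, 15 and 10 peaks, of which introns held 16, 8 and 8. NSUN2 itself had 4 peaks with folds of 2.75 in an intron, 3.64 in the 3′ UTR and 1.82 and 3.03 in exons, windows of 1 to 6 reads, and a q-value of 0.0193 at the 3′ UTR peak with the others above 0.05. The readers YBX1 and SRSF2 had none.

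Of 9 messenger RNAs reported elsewhere as NSUN2 targets, written down from general knowledge, 8 had a peak (88.9%, interval 56.5 to 98.0%). That interval covers the 59.2% of all protein-coding genes. The same 8 had an exonic peak and a peak with a q-value below 0.05. A fold of 4 was reached by 6 (66.7%), against 39% of all protein-coding genes. GRB2, an adaptor of growth factor receptors, had 19 peaks, 15 in introns, and its best exon peak had a fold of 12.6 and 324 reads. QSOX1, a secreted oxidase that forms disulfides, had a 3′ UTR peak of score 140 with 301 reads. CDK1 had 3 peaks with a highest fold of 11.5, HDGF 5 with a highest score of 196, LIN28B 16 with 12 in introns, CDKN1A 2 and ICAM1 1. CDKN1B had no peak.

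Among the genes the study followed, CDCP1, a transmembrane glycoprotein gene, had 19 peaks over 64.2 kb, 11 in introns, 4 in exons and 4 in the 3′ UTR. Its 16 peaks with a q-value below 0.05 included the exon peak of highest fold (18.2, 25 reads) and the last 3′ UTR peak of highest score (123, 557 reads). STC1, the hormone stanniocalcin 1, had 1 peak, in the 5′ UTR, with a fold of 7.46 and 16 reads. FOSL1, a subunit of AP-1, had 5 peaks, 4 of them in introns. The highest score was in its 3′ UTR (103, 818 reads) and the highest fold in an intron (11.8, 67 reads).

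Markers of the cell line and of other cell types are given as values, since a peak does not measure expression and cannot check the label. Ductal and epithelial markers of PANC-1 had a peak in 10 of 13 (76.9%, interval 49.7 to 91.8%), against 59.2% of all protein-coding genes. A fold of 4 was reached by 30.8% of them, against 39%. The highest scores named here were those of KRT8 (806, 4024 reads), KRT18 (596, 8085 reads) and ANXA2 (293, 4648 reads). SOX9 and S100A6 were among those with none, and EPCAM and CDH1 had a single intron peak each at a fold of 1.82 with 3 and 4 reads. Markers of acinar cells had a peak in 2 of 12, of endocrine cells in 2 of 9, of immune cells in 3 of 11, and of endothelial cells and fibroblasts in 2 of 11. Among these the largest window was that of CD68 with 62 reads, and the others held at most 10. The defining INS, GCG, PRSS1, CPA1, CD3E and PECAM1 had none.

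Zinc finger genes, a large family of DNA-binding repressors, were covered widely but thinly. On chromosome 19, where many of them stand in clusters, 182 of 250 genes with a ZNF symbol had a peak (72.8%, interval 67.0 to 77.9%), and on other chromosomes 212 of 267 (79.4%, interval 74.1 to 83.8%). Their medians of the highest window count were 20 and 24.5 reads, against 38 over all protein-coding genes with a peak. Of the peaks, 164 of 622 and 209 of 1035 were in 3′ UTRs. Genes of this family share repeated zinc finger sequence, so reads may be split between members.

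The deposited annotation put 4816 of the genes in 333 KEGG pathways. The largest were Pathways in cancer with 362 genes and 2865 peaks, and Herpes simplex virus 1 infection with 353 genes and 1553 peaks, a set that holds many zinc finger genes. The number of genes of each pathway in the whole genome was not used here, so these counts are no measure of enrichment. In the former PRKCA, IGF1R, the receptor of insulin-like growth factor 1, and EML4 had the most peaks, with 90, 47 and 44. NF1, a brake on RAS, had 48 peaks in the MAPK signaling pathway with a fold of 32.2, and APP, the amyloid precursor, had 67 in Alzheimer disease, 58 of them in introns. The set named Pancreatic cancer had 70 genes and 687 peaks, with a median of 7.5 peaks per gene and 54.9 kb against 3 peaks and 37.4 kb over all genes with a pathway. Other sets were as high or higher, such as Adherens junction with a median of 9.5 peaks.

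The pathways differed in where their peaks lay. Among 226 pathways with at least 30 genes, the intron share was lowest in Base excision repair (31.9% of 119 peaks), Ribosome biogenesis in eukaryotes (33.0% of 412), Fatty acid degradation (33.3% of 123), Ribosome (33.6% of 152) and Spliceosome (33.9% of 510), against 60.9% over all genes with a pathway. It was highest in Morphine addiction (78.0% of 463) and GABAergic synapse (77.9% of 403). The genes of Base excision repair and GABAergic synapse had median lengths of 20.3 and 85.4 kb, but ECM-receptor interaction, with a median of 74.0 kb, had an intron share of 41.8%. The part of gene length in the pathway order was not tested. The median of the genes' highest score was largest in Proteasome (40.9), Aminoacyl-tRNA biosynthesis (28.3) and Protein processing in endoplasmic reticulum (26.4), against 12.6 over all genes with a pathway. All 66 listed genes of Ribosome biogenesis in eukaryotes had an exon or UTR peak, against 85.5% of all genes with a pathway, where each gene counted has a peak by construction.

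Across chromosomes the share of protein-coding genes with a peak ran from 43.1% on chromosome 21 and 45.9% on X to 66.3% on chromosome 18. Peaks per Mb of gene span were most on chromosome 19 (98.7) and 17 (90.7) and fewest on chromosome 4 (40.5) and X (42.0). Chromosome 19, with many short genes, had the lowest intron share at 45.5%. Intergenic peaks made up 4.35% on chromosome 15 and 12.7% on X. The median fold was 3.03 on every nuclear chromosome listed except chromosome 11, where it was 3.04.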

How the data were processed

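Per the labels and the paper's methods, RNA from the ddH2O lysate (input) and from its anti-NSUN2 immunoprecipitate was made into SMART-Seq v4 libraries, which keep no strand, and sequenced as paired reads. The submitters' processing notes name fastp 0.20.1, HISAT2 2.1.0, MACS2 2.2.7.1, bedtools 2.29.2, HOMER 4.11.1 and DiffBind without roles, and the build GRCh38. The authors called peaks in the IP library against its input and deposited for each peak the ratio of IP over input, termed fold here, with the p-value and q-value, their −log10 values (here the score is −log10 p), the gene, biotype, region and KEGG pathways. The lactate list was used only for overlap. The authors also deposited MAnorm results on merged peaks, whose comparison of lactate with ddH2O (log2 ratios and p-values) was not used. From the 2 normalized signal columns (read densities, per 2 kb window) deposited there, the ddH2O reads were recovered by removing a straight line in the mean log2 density (slope 0.169, intercept -0.204), and 99.99% of 116136 windows of up to 1000 reads came out whole within 0.02. Each peak took the reads of the merged peak that it overlapped most.

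Of 360 deposited pathway labels, 27 held the letters GeneID in place of id inside a word and were merged with the label so restored. Genes were matched by symbol to RefSeq of GRCh38.p14 (14266 genes with a span, and 95.6% of 83369 peaks lay on it). Members and lists were chosen with earlier results of these data known, and the lists hold core members from general knowledge. Named genes were the 10 protein-coding genes with most peaks, with the largest summed length, with the highest score and with the highest fold at a q-value below 0.05, the 3 leading genes of every other biotype with at least 20 peaks, the 4 leading members of each list with members lacking a peak where 5 or fewer, the 3 leading genes of the 10 largest pathways, and NSUN2, CDCP1, STC1 and FOSL1. Other named members were chosen after their values were seen. Shares have 95% Wilson intervals, and no test was made. Chromosome Y was left out, and no sequence of chromosome 8 was considered for printing. Some items are not reported here. No per-sample column was left unused, and the scripts were tested on simulated data. Alternatives were a fold of at least 4, a q-value below 0.05, summed length, protein-coding genes only, exon and UTR peaks only and, added after the data were seen, peaks that overlap a lactate peak. Computing used matplotlib 3.10.9, scipy 1.17.1, pandas 2.3.3 and numpy 2.4.6 under Python 3.11.15.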

Additional observations from a re-analysis of the deposited data

How the results depend on the processing

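With 1 library of each kind all values describe these libraries, and counting intervals leave out the spread between cultures. No paired analysis was possible because each group had 1 library and no test was made. The intron share of peaks, 56.1% as reported, was 50.5% at a fold of at least 4, 47.7% at a q-value below 0.05, 47.6% among peaks that overlapped a lactate peak (added after the data were seen), 53.2% by summed length and 61.2% in protein-coding genes only. The protein-coding share, 88.6%, was 90.1% at that fold, 90.1% at that q-value, 91.1% with a lactate peak, 89.3% by summed length and 87.5% in exons and UTRs. The share held by the tenth of genes with most peaks, 46.4%, was 40.1%, 41.8% and 39.2% under the first 3 settings, 48.1% by summed length and 35.2% in exons and UTRs. The share of protein-coding genes with a peak, 59.2%, was 39.0%, 48.1% and 37.8% under those 3 settings and 50.3% in exons and UTRs. Of 21 gene lists, 16 left the interval of their share at a fold of at least 4, 7 at a q-value below 0.05, 17 with a lactate peak and 2 with exons and UTRs only. The aminoacyl-tRNA synthetases stayed at 100% under all 4. Peak counts of single genes also depend on the setting. Those of SYT1 went from 113 to 68 at a q-value below 0.05 and to 49 at a fold of at least 4. Those of SLC35F3 went from 104 to 61 and 51.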

Other observations

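Other gene classes of the list are given as values. The 3 transcripts of misc_RNA with the longest peaks were copies of the signal recognition particle RNA, and the largest, RN7SL589P, had a fold of 8.25 and 35 reads in a peak of 1367 bases. Of snoRNA genes named in the annotation, SNORD39 had a fold of 8.29 and 160 reads and SNORA24B a fold of 4.33 and 21 reads. Among unprocessed pseudogenes DPY19L1P1 had 20 peaks, 19 of them in introns, and FRG1BP had 7, all in exons. Among transcribed pseudogenes MFSD14C had 23 peaks, 7 of them on its RefSeq span, with a highest fold of 13.95. ZNRF2P2 had 14 intron peaks, none on its span, and ZNF37BP had 12. CYTOR had 27 peaks, 11 on its span, and SNHG14 had 26, with highest folds of 9.48 and 22.6. The list also holds an intron peak of NSUN6 that was 9887 bases long, with a fold of 9.66 and 259 reads in its window of 2 kb.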
